A study of Homo sapiens with 34 samples.

Results

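OGG1 was mapped by CUT&RUN in H2O2-treated cells with and without Orc6 knockdown, as 4 lists of called regions that hold 448413 regions in all, of 978086 in the 20 lists of the series analysed here. The lists were chosen by antibody, treatment and siRNA: both libraries of the control siRNA siGl3 and both of siOrc6, every region on chromosomes 1 to 22 and X being a member. CUT&RUN tethers a nuclease to an antibody on its target and sequences the DNA that is released. U2OS cells, an established human osteosarcoma line, were given siGl3 or siOrc6 for 72 h, were held by a double thymidine block and were released for 3 h before collection. Every H2O2 group had 5 mM H2O2 for 30 min, and non-treated groups, used for comparison, had none. Each reaction used 500000 cells fixed in 0.1% formaldehyde for 1 min and, for these lists, an OGG1 antibody (Invitrogen PA1-31402). Replicate 1 and replicate 2 of each group carry the batch labels 1 and 2, and nothing in the labels says whether they were separate cultures, so p-values measure only the spread between these libraries. All come from 1 cell line, no expression was measured, and the depletion of Orc6 protein cannot be read from these lists.

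OGG1 is the DNA glycosylase that recognises 8-oxoguanine, the commonest oxidised base, and cuts it out so that base excision repair can restore the guanine. Orc6, the smallest of the origin recognition subunits, belongs to the complex that marks the places where DNA replication can start, and it also acts in mismatch repair and cytokinesis. Guanine is the base most easily oxidised, above all within runs of guanines, which is why such runs are marked in the sequences printed here.

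A locus is a stretch of DNA covered without a gap by at least 1 of the 4 lists. It is called kept when all 4 libraries hold a region in it, lost when both siGl3 libraries and neither siOrc6 library do, and gained in the reverse case. Batch 1 alone and batch 2 alone name loci held by both libraries of 1 batch, whatever the siRNA, and by neither of the other. The same terms were used for a gene, which counted as occupied where a region came within 1 kb of either end. To show what DNA stands behind these terms, 5 promoters are printed as RefSeq gives them for GRCh38.p14, 250 bases before to 50 after the gene start, 5′ to 3′, with runs of at least 4 guanines or 4 cytosines in capitals. The promoter of KCNA2, a voltage-gated potassium channel, lies at chr1:110631391-110631690 on the minus strand. That of DCC, the netrin receptor of growing axons, lies at chr18:52339947-52340246 on the plus strand. Both were under a region in both siGl3 libraries and in neither siOrc6 library. The promoter of GRIK2, a kainate-type glutamate receptor subunit, lies at chr6:101393458-101393757 on the plus strand, and that of NUDT10, a diphosphoinositol polyphosphate hydrolase, at chrX:51331981-51332280 on the plus strand. Both were under a region in both siOrc6 libraries and in neither siGl3 library. The promoter of OGG1 itself, at chr3:9749702-9750001 on the plus strand, was under a region in all 4.
KCNA2: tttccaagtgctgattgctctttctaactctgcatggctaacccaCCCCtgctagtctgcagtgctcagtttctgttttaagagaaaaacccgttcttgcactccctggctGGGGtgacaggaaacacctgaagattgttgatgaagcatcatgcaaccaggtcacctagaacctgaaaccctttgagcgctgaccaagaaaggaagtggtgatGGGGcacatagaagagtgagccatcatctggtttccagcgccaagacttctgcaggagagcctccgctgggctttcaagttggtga
DCC: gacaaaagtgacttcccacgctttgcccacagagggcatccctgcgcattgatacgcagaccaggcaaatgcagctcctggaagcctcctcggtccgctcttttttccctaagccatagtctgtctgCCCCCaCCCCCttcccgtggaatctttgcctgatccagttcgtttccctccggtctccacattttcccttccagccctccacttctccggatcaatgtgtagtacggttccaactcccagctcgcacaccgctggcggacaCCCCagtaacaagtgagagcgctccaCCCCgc
GRIK2: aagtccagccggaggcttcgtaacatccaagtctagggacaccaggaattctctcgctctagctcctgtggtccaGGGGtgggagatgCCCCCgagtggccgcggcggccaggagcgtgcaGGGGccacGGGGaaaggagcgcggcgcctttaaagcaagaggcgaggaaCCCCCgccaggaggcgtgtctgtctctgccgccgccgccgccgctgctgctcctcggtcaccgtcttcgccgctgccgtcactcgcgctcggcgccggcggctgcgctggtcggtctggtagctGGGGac
NUDT10: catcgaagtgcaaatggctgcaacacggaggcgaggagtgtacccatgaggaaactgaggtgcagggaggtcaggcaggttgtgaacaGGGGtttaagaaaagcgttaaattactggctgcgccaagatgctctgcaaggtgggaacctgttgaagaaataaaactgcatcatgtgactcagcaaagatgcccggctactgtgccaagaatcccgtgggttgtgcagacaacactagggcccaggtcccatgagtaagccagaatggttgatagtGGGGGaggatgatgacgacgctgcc
OGG1: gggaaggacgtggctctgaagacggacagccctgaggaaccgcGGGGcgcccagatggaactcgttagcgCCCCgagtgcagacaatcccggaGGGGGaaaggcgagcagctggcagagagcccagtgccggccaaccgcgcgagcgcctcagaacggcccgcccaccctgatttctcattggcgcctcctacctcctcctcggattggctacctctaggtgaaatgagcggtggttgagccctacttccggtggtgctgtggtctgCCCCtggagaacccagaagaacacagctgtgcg

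The 5 sequences differ in base composition within a class as much as between classes. Guanine and cytosine make up 50.3% of the KCNA2 promoter, 58.0% of DCC, 69.3% of GRIK2, 52.7% of NUDT10 and 64.3% of OGG1. Marked runs number 3 in KCNA2, 4 in DCC, 6 in GRIK2, 2 in NUDT10 and 4 in OGG1. Of all 15812 promoters in the table, 93.6% hold GGGG on either strand, so a run on its own tells little about a class.

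After H2O2 the siOrc6 lists covered less of the genome than the siGl3 lists, in both batches, while the number of regions was lower in batch 2 only. The siGl3 lists covered 825 and 777 Mb and the siOrc6 lists 746 and 557 Mb. Both siOrc6 values lie below both siGl3 values, by 0.15 on the log2 scale in batch 1 and 0.48 in batch 2. The means were 801 ± 34.4 Mb and 652 ± 134 Mb (SD, n = 2 each). The exact two-sided permutation test gave p = 0.333, which is the smallest that 2 against 2 libraries allow (adjusted over 5 library measures, 0.833). The number of regions was 132025 and 110679 with siGl3 and 132408 and 73301 with siOrc6. The 2 groups overlap, because the siOrc6 list of batch 1 is as long as its siGl3 partner (log2 ratio 0.00) and that of batch 2 is shorter (-0.59; exact permutation p = 1). The siOrc6 library of batch 2 stands apart in length, and the weakest region it lists has a total signal of 9980, against 6131, 7327 and 6270 in the siGl3 libraries of batch 1 and 2 and the siOrc6 library of batch 1. The sources used here do not say what set that floor, and its part in the results was not tested. Totals of loci and genes and some library measures are also given without this library. Most other results include it. Read depth is unknown, since the lists hold no read counts.

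Region width and the share of regions at gene ends followed the batch 2 siOrc6 list. Median width was 3349 and 3615 bp with siGl3 and 3224 and 4178 bp with siOrc6 (exact permutation p = 1). Of the regions, 14.6% and 16.1% lay at a gene end with siGl3 and 14.4% and 21.1% with siOrc6 (exact permutation p = 1). Without the siOrc6 library of batch 2, both differences turned negative, to -258 bp and -0.93 percentage points. With all lists held to the length of the shortest, they were -816 bp and -0.47 points. Very broad regions were fewer with siOrc6 in both batches: regions of at least 100 kb numbered 231 and 267 with siGl3 and 116 and 160 with siOrc6. Regions of at least 20 kb held 28.8% and 34.5% of the covered bases with siGl3 and 22.96% and 33.2% with siOrc6. At the level of genes the lists were close: 81.1% and 82.1% of 19974 protein-coding genes were occupied with siGl3 and 79.6% and 78.2% with siOrc6, without overlap and at the smallest possible p (exact permutation p = 0.333). At equal list length the groups overlapped, with 74.2% and 77.8% in siGl3 and 72.6% and 78.2% in siOrc6. With every list held to the covered bases of the shortest, both siOrc6 lists occupied more genes (68.9% and 78.2%) than the siGl3 lists (64.5% and 67.8%).

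**Figure D1:**
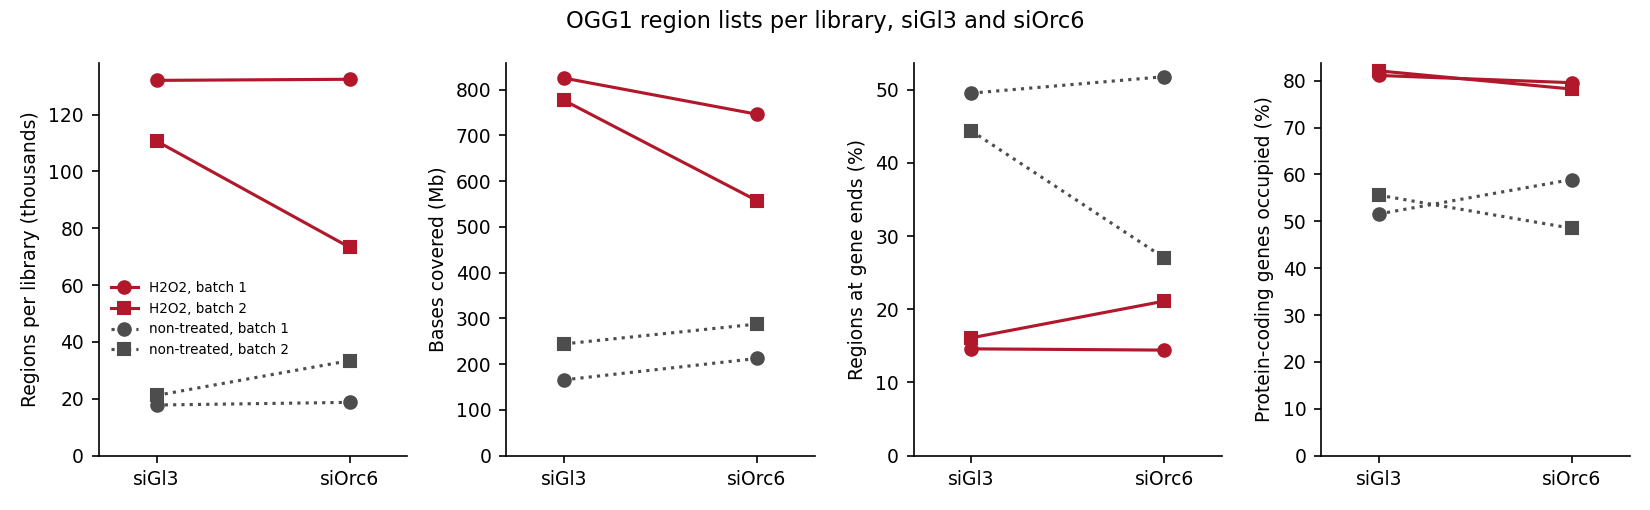
Regions per library, bases covered (Mb), regions at gene ends (%) and protein-coding genes occupied (%) in OGG1 libraries of siGl3 and siOrc6 cells, each point 1 library and each line 1 batch. With H2O2 (red) covered bases are fewer in siOrc6 than in siGl3 in both batches (746 against 825 Mb and 557 against 777 Mb), while without it (grey) they are more in both.

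The 4 lists together covered 111691 loci and 1160 Mb, 38.3% of the genome span. Kept loci numbered 26612 (23.8% of all loci), lost loci 6827 (6.11%) and gained loci 457 (0.409%). Loci of batch 1 alone numbered 9647 (8.64%) and of batch 2 alone 1194 (1.07%). More loci therefore followed batch 1 than followed siGl3. Single-library loci made up most of the rest, with 17044 in the siGl3 and 18374 in the siOrc6 library of batch 1, 11199 in the siGl3 library of batch 2 and 1049 in its siOrc6 library. Pairs of libraries shared bases to similar degrees whether matched by siRNA or by batch. The Jaccard index, the shared share of all bases covered by a pair, was 57.8% for the siGl3 pair, 45.8% for the siOrc6 pair, 54.2% and 55.9% for the same-batch pairs and 50.1% for each crossed pair.

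The excess of lost over gained loci changed when the lists were held to equal length or equal coverage. With every list held to 73301 regions, the strongest by total signal, lost loci numbered 2466 and gained loci 995. With every list held to the 557 Mb of the shortest, lost loci numbered 185 and gained loci 3852, so that the order was reversed. At that setting the siGl3 lists kept 40047 and 37942 regions and the siOrc6 lists 57098 and 73301. Regions of at least 20 kb were then 15.1% and 17.1% of the siGl3 lists and 8.25% and 6.36% of the siOrc6 lists. Counted in bases the order held but narrowed: 70.8 Mb lost against 11.4 Mb gained as deposited, 53.8 against 12.5 Mb at equal length and 29.7 against 24.1 Mb at equal coverage. Leaving out the siOrc6 library of batch 2 gave 10165 lost, 19347 gained and 40719 kept loci. A gain then needs 1 siOrc6 library alone against 2 siGl3 libraries for a loss.

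**Figure D2:**
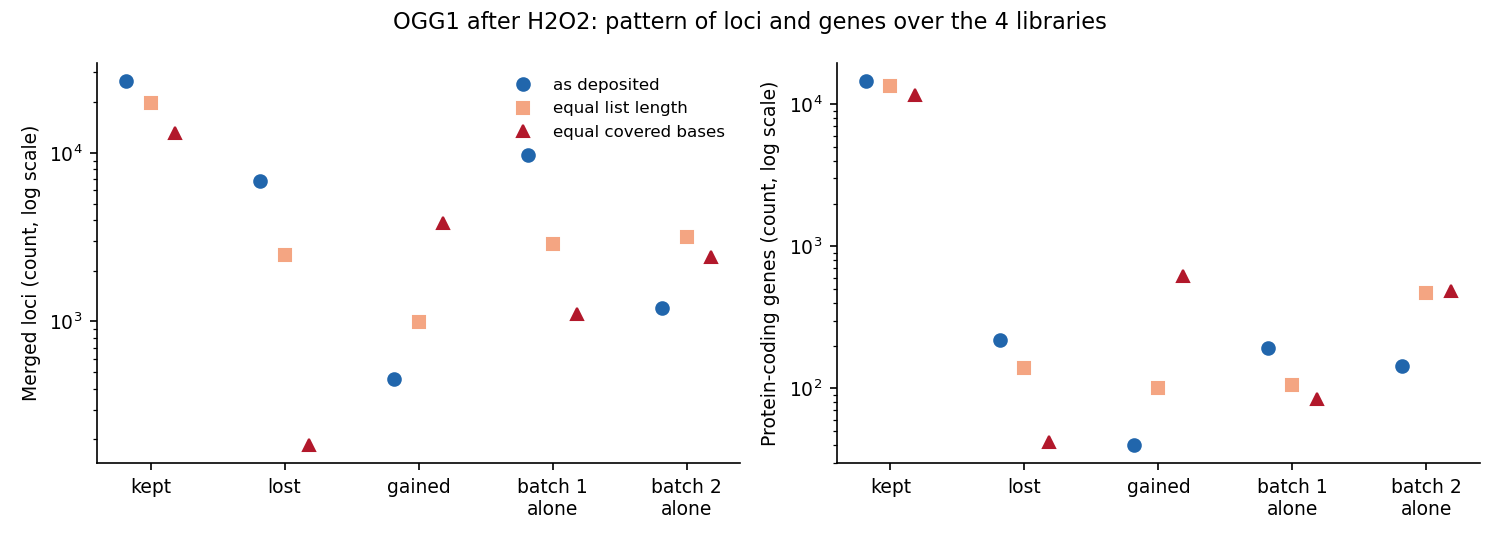
Number of merged loci (left) and protein-coding genes (right), on log scales, in each pattern over the 4 libraries, with lists as deposited, held to equal length or held to equal covered bases. Lost loci number 6827 as deposited and 185 at equal coverage, and gained loci 457 and 3852, while kept is the larger class of the 3 at each setting.

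Most lost bases were the rims and gaps of loci that siOrc6 cells kept. Of 70.8 Mb covered in both siGl3 libraries and in neither siOrc6 library, 62.4% lay inside kept loci, 18.6% in loci of 3 libraries and 19.0% in lost loci. Stretches of lost bases within kept loci were short, with a median of 794 bp. Gained bases were placed likewise, with 82.4% of 11.4 Mb inside kept loci. Kept loci were wide, with a median of 13867 bp and a 90th percentile of 62.2 kb. The median share of a kept locus that each library covered was 73.1% and 70.7% with siGl3 and 66.6% and 54.0% with siOrc6. At 8101 of the 26612 kept loci (30.4%) both siOrc6 libraries covered fewer bases than both siGl3 libraries, and at 1599 (6.01%) more. Batch split the same loci as well: batch 1 covered more than batch 2 in both siRNAs at 7666 loci, and less at 3971.

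Lost and gained loci were narrow, weak and seldom at a gene end. Their median widths were 4046 and 3840 bp. The class rule itself favours such a contrast with kept loci. A kept locus joins regions of every library, and presence needs only 1 bp, so wide or strong regions are readily called kept. Loci of batch 1 alone and batch 2 alone were similarly narrow, with medians of 4003 and 4136 bp. How far the classes differ apart from this rule was not tested. Strength is given as a percentile of total signal within the library's own list, which is the authors' value for the region. The strongest region of a lost locus had a median percentile of 30.1 and 29.4 in the siGl3 libraries, and none of the 6827 reached the 90th percentile of either list. In gained loci the medians were 29.0 and 15.03 in the siOrc6 libraries. In kept loci they were 76.1 and 73.8 with siGl3 and 75.1 and 59.9 with siOrc6. A gene end lay at 5.86% of lost, 8.97% of gained, 4.80% of batch 1 alone, 14.4% of batch 2 alone and 38.2% of kept loci. Of lost loci, 44.4% lay within 10 kb of a kept locus and 6.75% beyond 100 kb. Of gained loci, 34.1% and 24.5% did so.

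Ranked by mean percentile, the strongest lost loci were stretches of 9.79 to 18.3 kb, 5 within genes and 5 outside; the gene table gives bounds without exons, so introns are not told from exons. The first lay within CEP89, a centriole gene, at chr19:32908483-32923284 (hg38), with percentiles of 81.9 and 81.6. The next lay outside genes at chr12:114013136-114022922, 46.8 kb from RBM19, with 78.1 and 79.7. Others lay in SPATA13, a guanine nucleotide exchange factor gene (75.5 and 81.6), in CAPN13, a calpain protease gene (79.6 and 77.1), in GPR26, an orphan receptor gene (71.9 and 83.9), and in NEO1, a netrin and repulsive guidance receptor gene (86.1 and 67.4). The remaining 4 lay outside genes, nearest to SCOC, RRAGC, PTPRU and KLHL25. None of these 10 loci was at a gene end. The widest lost locus, 20.4 kb at chr11:19803337-19823784 in NAV2, a neuron navigator gene, was chosen after its values were seen.

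The strongest gained loci were weaker in batch 2 than in batch 1 at 9 of 10, the siOrc6 list of batch 2 being the shorter. The first lay at chr6:12587812-12596272, 120 kb from PHACTR1, with percentiles of 74.6 and 50.7. SMYD3, a lysine methyltransferase gene, held one with 63.1 and 42.7. The locus at the start of NUDT10, whose promoter is printed with the others, had 55.3 and 50.3. Of the rest, 5 lay outside genes.

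Regions of other antibodies overlapped the classes to very different degrees. Orc6 regions from siGl3 cells with H2O2 overlapped 63.9% and 57.0% of kept loci (2 libraries) but 8.14% and 9.55% of lost and 13.6% and 11.4% of gained loci. Of batch 1 alone they overlapped 23.2% and 27.3%. Kept loci are wider, so the comparison was repeated within widths. Among loci of 4 to 8 kb, Orc6 overlapped 43.0% and 33.7% of 5444 kept, 7.68% and 9.25% of 3058 lost, 15.1% in each library of 192 gained, 25.6% and 32.0% of 4214 batch 1 alone and 3.24% in each of 556 batch 2 alone loci. SMARCA1, the ATPase of an ISWI chromatin remodeller, overlapped 31.5% and 27.2% of kept and 7.33% and 2.29% of lost loci of that width in siGl3 cells with H2O2. OGG1 itself in non-treated siGl3 cells overlapped 9.39% and 10.7% of kept and 0.65% and 2.62% of lost loci of 4 to 8 kb. Lost loci of that width were thus marked less often than kept loci in these 6 libraries. Width was matched but strength was not, and lost loci were the weaker. The 2 Orc6 libraries covered 11.2% and 13.2% of the genome span. They covered 13.1% and 18.3% of lost bases, most of which lay inside kept loci. With lists held to equal length, Orc6 overlap over all widths was 73.1% of kept, 19.7% of lost and 28.4% of gained loci (means of 2 libraries), in place of 60.4%, 8.85% and 12.5%.

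**Figure D3:**
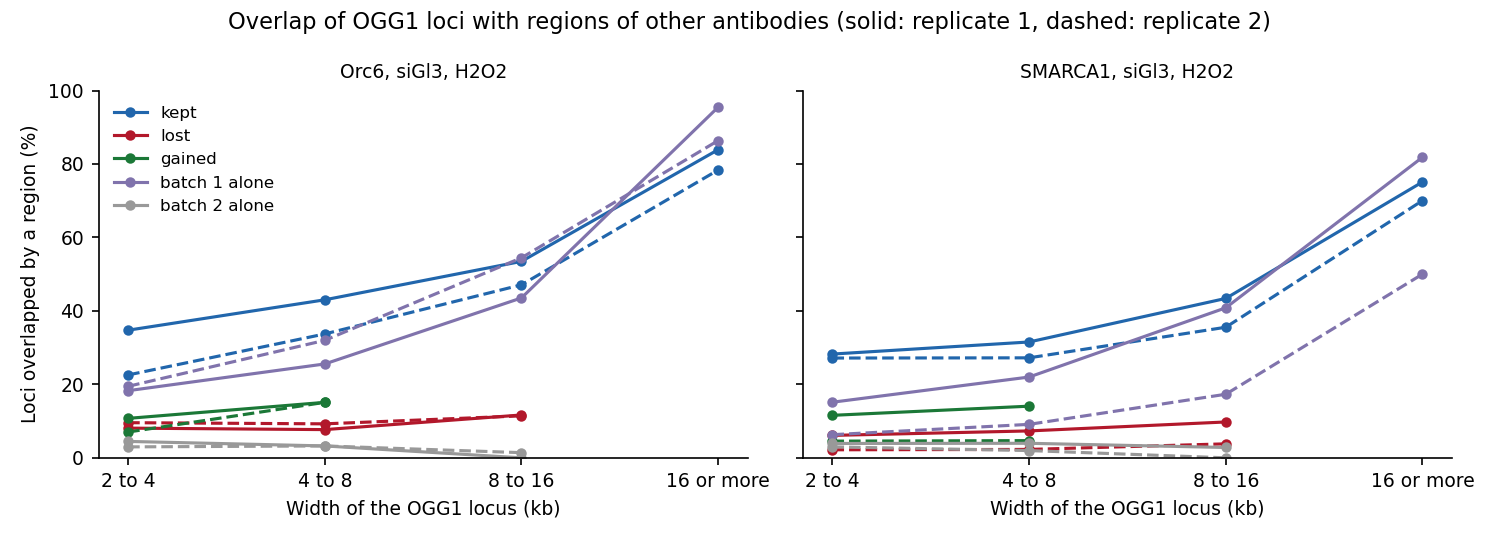
Percent of OGG1 loci overlapped by a region of Orc6 (left) or SMARCA1 (right) from siGl3 cells with H2O2, by width of the locus (kb) and pattern, each line 1 library and points shown for at least 20 loci. At 4 to 8 kb the kept loci (43.0% and 33.7% for Orc6) lie above the lost loci (7.68% and 9.25%) and the batch 1 alone loci between them.

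Every chromosome was covered less with siOrc6 than with siGl3 in both batches (23 of 23). On 14 of 23 both siOrc6 libraries lay below both siGl3 libraries. Chromosome 17 was covered most, at 51.0% and 52.0% with siGl3 and 45.6% and 43.3% with siOrc6. The X chromosome was covered least, at 3.49% and 3.79% with siGl3 and 2.96% and 2.68% with siOrc6. The share of all covered bases that fell on a chromosome differed little between the siRNAs. It was higher with siOrc6 without overlap on chromosome 15 (1 of 23, 4.35%), at 4.152% and 4.118% with siGl3 against 4.18% and 4.154% with siOrc6. It was lower without overlap on chromosomes 10 and 12 (2 of 23, 8.7%). On chromosome 10 the shares were 6.005% and 5.95699% with siGl3 and 5.95655% and 5.69% with siOrc6. No chromosome could pass a test: the exact two-sided permutation p was 0.333 at its smallest and 1 after adjustment over 23. The sign was the same in both batches on 7 of 23 chromosomes. The largest differences in share were +0.42 points on chromosome 17, +0.29 on chromosome 22 and +0.23 on chromosome 19, and each was negative in batch 1 (-0.06, -0.07 and -0.22) and positive in batch 2 (0.89, 0.64 and 0.69).

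Loss was spread unevenly. Of the bases shared by both siGl3 libraries, 12.1% were lost over the genome, 22.2% on chromosome 13, 20.9% on X, 18.4% on chromosome 4 and 17.7% on chromosome 6, against 5.76% on chromosome 22 and 6.21% on chromosome 17. Across the 23 chromosomes the lost share was lower where coverage in the siGl3 library of batch 1 was higher (Spearman -0.83, Pearson -0.91), a description of values from the same lists. Gained bases were 2.79% of those shared by both siOrc6 libraries, from 1.05% on chromosome 22 to 9.12% on X. Lost loci per Mb ranged from 0.65 on X to 3.01 on chromosome 16. Of 3042 windows of 1 Mb, 1761 held a lost locus, 410 a gained locus and 2506 a kept locus. The densest windows held 19 lost loci each. One was chr12:114000001-115000000, with TBX5 and TBX3, T-box factors of heart and limb development, where 24 loci were kept and 4 were of batch 1 alone. None was gained there.

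**Figure D4:**
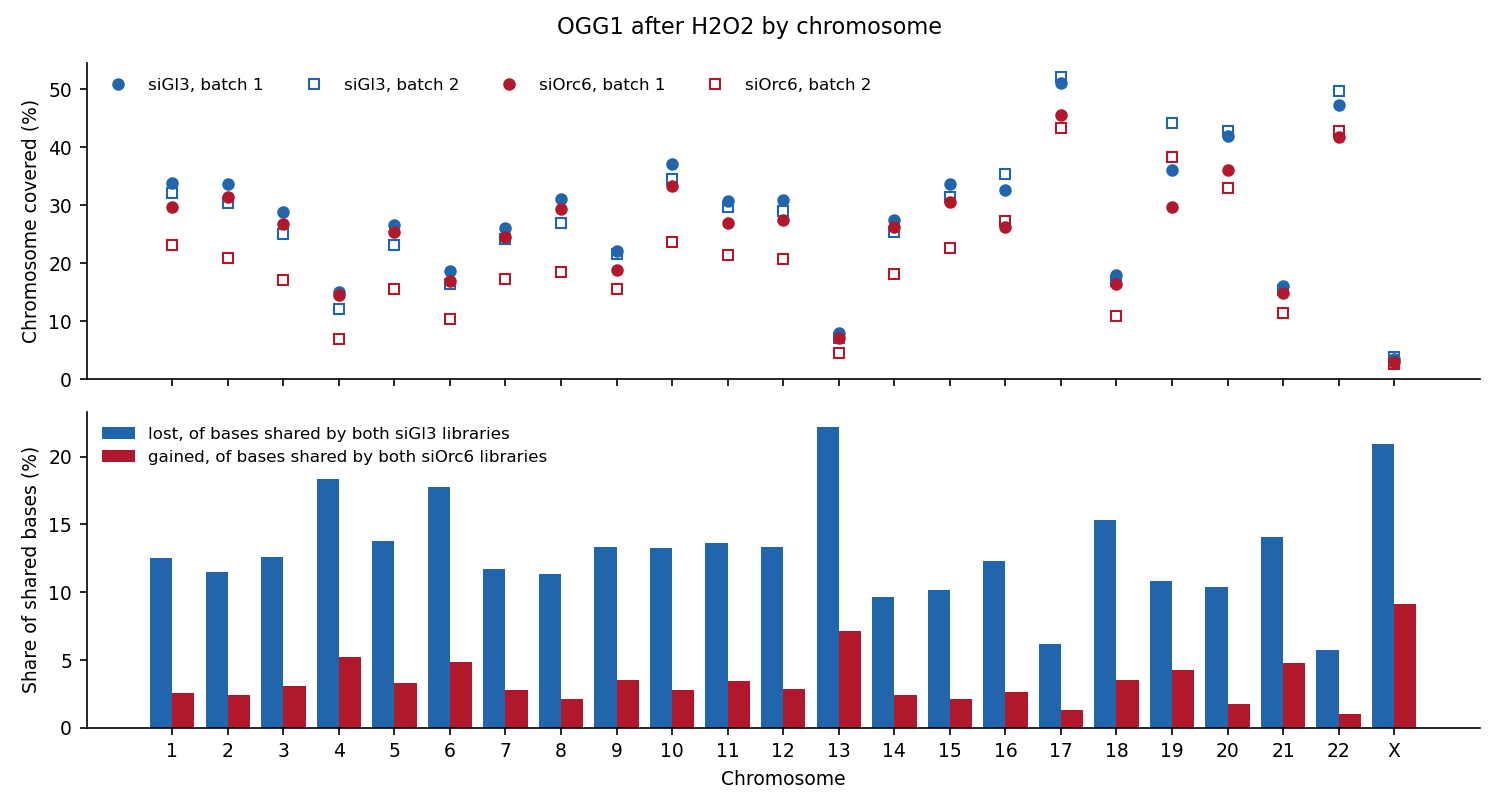
Top, percent of each chromosome covered by OGG1 regions in each of the 4 H2O2 libraries. Bottom, lost bases as percent of those shared by both siGl3 libraries and gained bases as percent of those shared by both siOrc6 libraries; chromosome 13 and X have the largest lost shares (22.2% and 20.9%) and chromosomes 22 and 17 the smallest.

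Among 19974 protein-coding genes, 14509 kept OGG1 at an end in all 4 libraries (72.6%), 220 lost it with siOrc6 (1.1%) and 40 gained it (0.2%). A further 191 were of batch 1 alone (0.956%), 144 of batch 2 alone (0.721%) and 2691 were occupied in none. The 2 batch patterns together thus held more genes than the lost and gained patterns. As with loci, the excess of losses changed with the setting: 140 lost and 101 gained at equal list length, 42 lost and 619 gained at equal covered bases. At equal covered bases the lists also differ in region number and breadth, and the part of each was not tested. Of the 220 lost genes, 22 were also lost at both of these settings, and of the 40 gained genes 5 were also gained. Among genes with a printed promoter, KCNA2 was lost at both settings. DCC and GRIK2 kept their call at neither setting, and NUDT10 kept its call at equal list length only. Without the siOrc6 library of batch 2 the counts were 680 lost and 261 gained. Within batch 1 alone 921 genes were lost and 613 gained, and within batch 2 alone 1054 and 279.

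The lost genes of highest signal lay at the rim of regions that siOrc6 cells still had. RPS6KB1, the S6 kinase of the mTOR pathway at chr17:59893121-59950574, had percentiles of 99.7 and 97.9 in the siGl3 libraries, and the nearest region of either siOrc6 library ended 1.22 kb from its window. ADA2, an extracellular adenosine deaminase, had 97.0 and 94.3 with a siOrc6 region 0.12 kb away. KCNK18, the TRESK potassium channel, had 93.1 and 97.7 (0.36 kb away), and KCNA2 had 94.3 and 92.9 (0.40 kb away). SPATA3 had 92.9 and 94.1, and TRAF1, an adaptor of the tumour necrosis factor receptors, 88.4 and 82.0. SLC7A2, a cationic amino acid transporter, the homeobox gene VAX1, the T-box gene TBX5 and LRIT1 followed, with mean percentiles between 81.2 and 85.1. Over all 220 lost genes the median distance to the nearest siOrc6 region was 1.70 kb, 186 lay within 10 kb and 34 lay farther. For 66 of them the gene end was in lost loci only, and for 65 it was in a kept locus. Gene bounds can reach beyond the promoter that RefSeq lists: 182 lost genes have a listed promoter, which was lost for 61 and under a region in all 4 libraries for 9. Among the 34 farther ones, chosen after their values were seen, DCC had a siOrc6 region no nearer than 222 kb, MAB21L1 213 kb and the smooth muscle myosin gene MYH11 1211 kb, with mean percentiles of 22.96, 40.6 and 17.8. DCC was weak in the siGl3 library of batch 1, with percentiles of 3.17 there and 42.7 in batch 2. DCC, MAB21L1 and MYH11 were not called lost at equal list length or at equal covered bases.

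With lists as deposited, gained genes were more often free-standing: 16 of 40 lay over 10 kb from any siGl3 region. The median distance was 7.28 kb, and 22 lay in gained loci only. None of the 16 was gained at equal covered bases. The 5 genes gained at both equal list length and equal covered bases were RGS22, SIAE, C5orf58, LRTM3 and NKX2-6. They lay 0.18 to 2.03 kb from a siGl3 region. Outside the gene lists, the 10 gained genes of highest signal were RGS22, SIAE, FAM246A, EOLA2, NUDT10, C5orf58, LRTM3, NKX2-6, SLC24A3 and GPR139. SIAE, a sialic acid acetylesterase, had percentiles of 67.3 and 54.7 with siOrc6, and a siGl3 region lay 0.18 kb from its window; its RefSeq promoter was under a region in all 4 libraries. RGS22, a regulator of G-protein signalling, had 78.2 and 45.5. NUDT10 was 57.0 kb from the nearest siGl3 region. GRIK2, whose promoter is printed, was 270 kb away and had a mean percentile of 37.5. SMARCA1 regions of siOrc6 cells with H2O2 lay at 52.5% of the 40 gained genes in each of 2 libraries, against 11.4% and 21.8% of lost, 43.1% and 57.6% of batch 2 alone, 85.1% and 91.5% of kept and 65.7% and 72.1% of all genes. In siGl3 cells with H2O2 SMARCA1 lay at 4 and 0 of the 40 gained genes and at 40.7% and 44.6% of all genes. Whether antibodies share a source of these regions was not tested.

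Genes of base excision repair kept OGG1 at their ends throughout. All 12 DNA glycosylases and oxidised-nucleotide hydrolases were kept, as were all 16 genes of the steps after the glycosylase, against 72.6% of all genes. OGG1 itself, at chr3:9749952-9791070, had percentiles of 97.1 and 98.8 with siGl3 and 94.5 and 97.4 with siOrc6. MUTYH, the glycosylase that removes adenine opposite 8-oxoguanine, had 98.5 and 97.5 with siGl3 and 93.1 and 91.9 with siOrc6. NUDT1, which destroys oxidised guanine nucleotides, was above 99 in all 4 libraries. UNG, the uracil glycosylase, lay lower, at 78.0 and 93.4 with siGl3 and 89.8 and 85.0 with siOrc6. APEX1, the endonuclease that cuts the abasic site, had 99.2, 96.1, 98.9 and 97.8 in the order siGl3 batch 1 and 2, siOrc6 batch 1 and 2. In the same order PARP1, a sensor of strand breaks, had 91.2, 98.0, 94.8 and 89.6, and XRCC1, the scaffold of single-strand break repair, 97.4, 95.2, 87.0 and 99.1. The groups overlap for OGG1, UNG, APEX1, PARP1 and XRCC1, while both siOrc6 values of MUTYH lie below both siGl3 values. The share of all kept genes with such a gap in percentile was not counted, so the MUTYH values have no background here. In covered bases, another measure taken over loci, 30.4% of kept loci were lower with siOrc6 without overlap.

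Other repair and replication lists were also nearly all kept. Of 8 mismatch repair genes 7 were kept and MSH3 was occupied in none. Of 27 break repair and checkpoint genes 26 were kept, and MDC1 was occupied in none. Of 27 origin licensing and firing genes 26 were kept, among them MCM2, CDC6 and CDT1. ORC1, the largest origin recognition subunit, had no region at its outer gene bounds in the siOrc6 library of batch 2, but its promoter in the RefSeq table was under a region in all 4 libraries. ORC6 itself, at chr16:46689659-46698394, was kept, with percentiles of 88.8 and 91.2 with siGl3 and 92.6 and 83.9 with siOrc6. Its occupancy by OGG1 says nothing of its expression. Of 14 ISWI remodeller genes 11 were kept, including SMARCA5 (46.9 and 58.7 with siGl3, 61.7 and 57.7 with siOrc6). SMARCA1 was occupied in none, RBBP7 in the siOrc6 library of batch 2 alone, and the outer bounds of RSF1 in all but the siGl3 library of batch 2, though its RefSeq promoter was under a region in all 4.

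Stress-response lists had 1 member called lost, and its promoter was kept. Of 25 NRF2 antioxidant targets 21 were kept and none was lost or gained: HMOX1, which breaks down haem, was above 99 in all 4 libraries, and NQO1, a quinone reductase, between 95.8 and 97.3. Of 16 peroxide and superoxide detoxifying enzymes 15 were kept. Of 24 p53 targets 23 were kept, including CDKN1A, the p21 inhibitor of cyclin-dependent kinases. FAS, the death receptor, was called lost at its outer gene bounds, with percentiles of 21.7 and 26.2 in the siGl3 libraries and a siOrc6 region 3.22 kb away. Its RefSeq promoter, at chr10:88990548-88990847 inside those bounds, was under a region in all 4 libraries. Of 19 immediate early genes 16 were kept, and FOS lay above 98 in all 4 libraries.

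Hepatocyte, germline, T-cell and histone genes were the least often kept of these lists. Of 55 replication-dependent histone genes of chromosome 6, whose messages are made in S phase, 33 were kept, 1 was lost (H3C8), 1 was gained (H2AC16), 2 were of batch 2 alone (H2BC3 and H3C12) and 10 were occupied in none. H3C8 had percentiles of 27.3 and 62.7 with siGl3, and H2AC16 had 43.1 and 0.25 with siOrc6, so its second region was among the weakest of its list. Histone genes lie close together and near-identical in sequence, so how the authors placed reads that match several copies bears on these calls; the sources used here do not give it. Of 77 cytosolic ribosomal protein genes 73 were kept and none was lost or gained. Of 18 bone and mesenchymal genes 12 were kept, among them COL1A1 and SPP1. IBSP, a bone matrix protein, was lost from percentiles of 0.20 and 17.1. RUNX2, the osteoblast master factor, was of batch 1 alone. Occupancy of COL1A1 in all 4 libraries is no check of the cell type, since OGG1 occupancy does not report expression. Of 12 hepatocyte genes 5 were kept and CYP2E1 was lost. Of 12 T-cell genes 7 were kept and CD3D was lost, and of 12 germline genes 5 were kept and STRA8 was lost. Of 12 neuron genes 11 were kept. The nearest siOrc6 region lay 0.02 kb from the window of CYP2E1, 1.06 kb from IBSP and 2.56 kb from STRA8. It lay 6.37 kb from CD3D and 6.60 kb from H3C8. RefSeq promoters of CYP2E1 and H3C8 were under no region in any library. Those of IBSP and STRA8 were under a region in 1 siGl3 library only, and that of H2AC16 in 1 siOrc6 library only. None of these promoters was thus itself lost or gained. In all, 6 of 386 list members were lost (1.55%) and 1 gained (0.259%), near the 1.1% and 0.2% of all genes. At equal covered bases no list member was lost and 15 were gained.

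**Figure D5:**
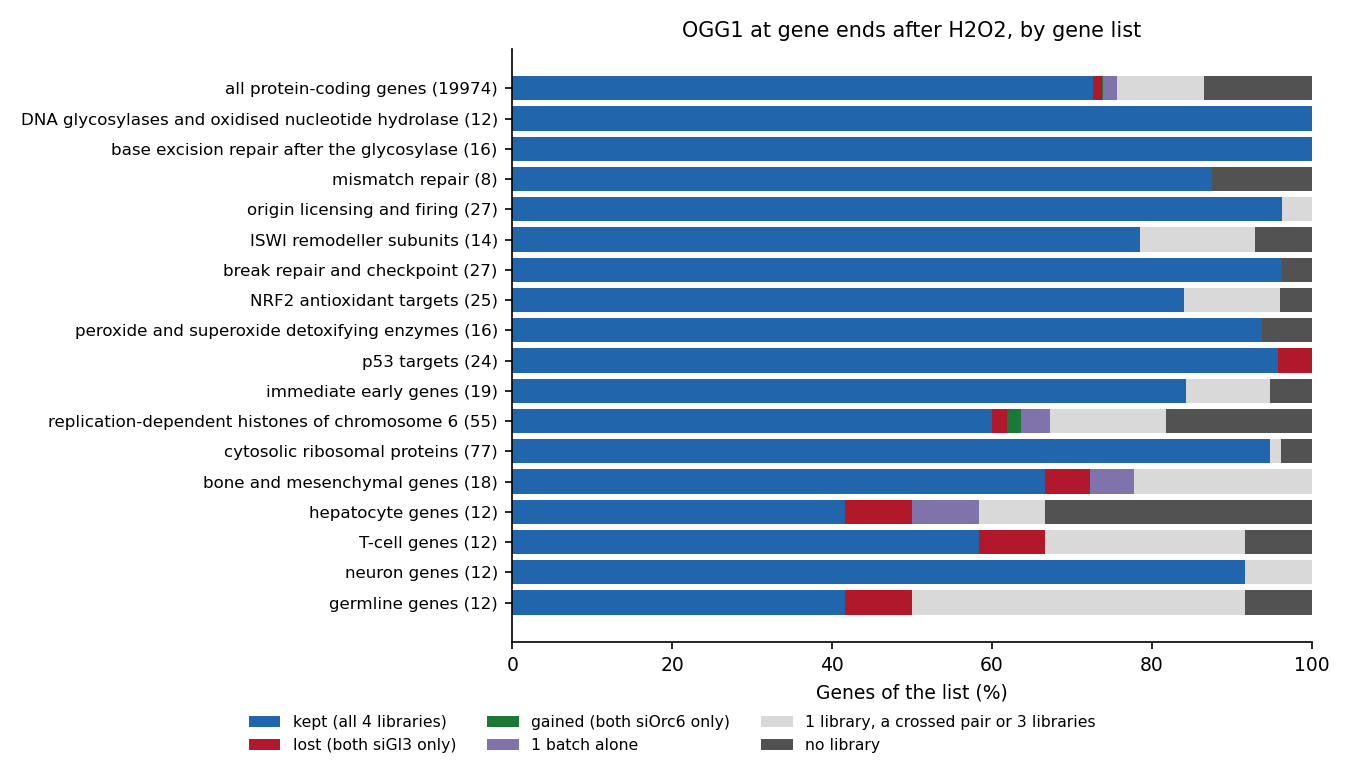
Percent of the genes of each list (number of genes in brackets) by pattern of OGG1 at their ends over the 4 H2O2 libraries. The repair and origin lists reach 87.5% to 100% kept, the histone genes 60.0%, and lost and gained genes are single members.

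The genes of highest signal were kept and lay in 2 neighbourhoods. ASPHD2, CRYBA4, CRYBB1, HPS4, SRRD, TFIP11 and TPST2 shared 1 kept locus of 1976 kb at chr22:26081417-28057676. ACTB, the cytoplasmic actin, FSCN1, an actin bundling protein, and FBXL18 shared 1 of 541 kb at chr7:5389160-5929798. Every one of the 16 libraries of other groups and antibodies also held a region in both loci. Loci this wide are easily met by 1 bp, so that count says little about the genes in them. Orc6 replicate 2 of siGl3 cells with H2O2, for example, had no region at the ends of the chromosome 22 genes named here or of ACTB. Neighbouring genes under 1 broad region are not separate observations.

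Base composition of promoters separated the batches more than the siRNAs. Of 15812 promoters with a sequence, 10018 were under a region in all 4 libraries, 208 were lost, 75 gained, 137 of batch 1 alone and 274 of batch 2 alone. Median guanine and cytosine content was 62.7% over all, 65.0% in kept, 53.3% in lost, 65.3% in gained, 43.3% in batch 1 alone, 64.7% in batch 2 alone and 51.7% in promoters under no region. The word GGGG, read on both strands, was in 97.2% of kept, 91.3% of lost, 96.0% of gained, 73.7% of batch 1 alone and 83.4% of unoccupied promoters. TGACTCA, the AP-1 motif, was in 3.67% of all, 5.77% of lost, 2.67% of gained, 8.03% of batch 1 alone and 3.28% of batch 2 alone promoters. CACGTG, the E-box, was in 8.87% of all, 5.77% of lost, 5.33% of gained, 2.19% of batch 1 alone and 8.76% of batch 2 alone promoters. Such a match is a description of 300 bases and not a site.

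Compared with non-treated cells, the change of coverage with siOrc6 had the opposite sign. Without H2O2 the siOrc6 lists covered 250 ± 53.1 Mb and the siGl3 lists 205 ± 55.6 Mb (SD, n = 2 each), higher with siOrc6 by 0.36 on the log2 scale in batch 1 and 0.24 in batch 2. The difference between the changes was -0.61 on the log2 scale, and its exact two-sided permutation test over 36 arrangements gave p = 0.222, adjusted 0.667 over 5 measures (the smallest possible p is 0.0556). For the number of regions the difference was -0.66 on the log2 scale (exact permutation p = 0.389), for median width 0.14 (p = 0.611, exact), for the share of regions at gene ends 9.97 points (exact permutation p = 0.667) and for occupied genes -2.85 points (exact permutation p = 0.611). None could pass the threshold of 0.05 at this number of libraries, so these tests cannot decide whether a change is particular to H2O2.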

How the data were processed

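OGG1 CUT&RUN was analysed in 4 libraries of H2O2-treated U2OS cells, 2 per siRNA, with 4 non-treated OGG1 and 12 SMARCA1 and Orc6 libraries for comparison. Groups came from sample titles. Per the submitters' processing notes the build was hg38 and the tools were SEACR 1.1 with bedtools, Bowtie2 and SAMtools, and DiffBind, DESeq2 and deepTools, with no role stated for any. A deposited list gives the regions of a single library and, for each region, the authors' total signal and maximum signal. How signal was normalized and which control was used: not given in the sources used here. Signal therefore served only to rank regions inside a list. Read depth is unknown, and no interval or floor that needs it is given.

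Regions of the 4 lists were merged where they touched or overlapped, and presence needed 1 bp. Gene bounds and promoters came from RefSeq tables of GRCh38.p14. Promoters matched 15812 of 19974 protein-coding genes. No genome sequence was used here, so sequences of regions are not printed. The genome span is the farthest region end per chromosome.

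Library measures and chromosome shares were tested by exact two-sided permutation with Benjamini-Hochberg adjustment. Classes of loci and genes are counts without a test. Libraries with equal replicate numbers carry the same batch label and are therefore paired. Same-batch libraries of different siRNA had Jaccard indices of 54.2% and 55.9%, and crossed ones 50.1% each. The siGl3 pair, which spans the batches, had 57.8%, and the siOrc6 pair 45.8%. No 2 lists were alike. At most 1 region had identical bounds in any 2 of the 4.

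Named genes were list members that were lost or gained, then the 10 others of highest mean percentile per direction. Kept genes were named as up to 4 examples per list and the 10 of highest percentile, and loci as the 10 of highest percentile per direction. Not every gene or locus under this rule is reported here. The members and the 17 gene lists were chosen with earlier results of these data known. Alternatives covered list length, covered bases, signal rank, width, windows, overlap, merging, pairing and each library left out. The interval code was tested on simulated data with planted changes. Python 3.11.15, NumPy 2.4.6, pandas 2.3.3, SciPy 1.17.1 and matplotlib 3.10.9 were used.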

Additional observations from a re-analysis of the deposited data

Results flagged for a closer look

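The bases covered by OGG1 regions differed between siOrc6 and siGl3 in opposite directions with and without H2O2 in every same-batch pair. Without H2O2 the log2 ratios of siOrc6 to siGl3 were 0.36 and 0.24 in batches 1 and 2, and with H2O2 they were -0.15 and -0.48. The difference of these ratios was -0.61 (exact permutation p = 0.222).

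The fold enrichment of covered bases at gene ends, relative to the share of the genome span that gene-end windows make up, also differed in opposite directions. The siOrc6 value minus the siGl3 value was -0.32 and -1.57 in non-treated batches 1 and 2, and 0.09 and 0.63 with H2O2. The difference of these differences was 1.31 (exact permutation p = 0.444). Neither difference could pass the threshold of 0.05, since the smallest possible p of this permutation test is 0.0556.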

How the results depend on the processing

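Kept genes stayed within 1.5 times the reported count at every setting. Covered bases were lower with siOrc6 at every setting that did not hold them equal. With lists held to equal length, lost and gained loci numbered 2466 and 995, lost and gained genes 140 and 101 and list members 1 and 4. Median width (-816 bp) and the share of regions at gene ends (-0.47 points) changed sign, and Orc6 overlap was 19.7% of lost, 28.4% of gained and 73.1% of kept loci. With equal covered bases there were 185 lost, 3852 gained and 13048 kept loci, 42 lost and 619 gained genes, and 0 lost and 15 gained list members. The log2 of lost over gained reversed to -4.38 for loci and -3.88 for genes. At the same setting, added after seeing the data, occupied genes (7.41 points), region number (log2 ratio 0.73), median width (-3943 bp) and the share at gene ends (-9.04 points) also reversed. Regions at or above the median total signal gave 3130 lost, 188 gained and 14247 kept loci, 3 lost and 3 gained list members and 1 chromosome without overlap. Where a library had to cover 50% of a locus, 919 were gained and 8753 kept. Base segments numbered 60484 lost, 16934 gained and 94642 kept. Gene starts alone gave 75 gained genes and 2 lost list members, and windows of 5 kb 2 gained list members. Of 166 alternative values, 90 kept their side or size, 64 moved and 12 reversed. The 90 include values that could hardly change. For the library measures the replicate block alters the p-value only. A cut at each list's own median leaves the ratio of region numbers as it was (log2 ratio -0.295). The same ratio was found for regions of at least 500 bp. The cause of the moved and reversed values was not tested.

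With the replicate block, covered bases differed by -149 Mb at p = 0.5 (exact permutation within batches, the smallest possible). Occupied genes had the same p. No library measure could pass the threshold of 0.05 with or without the block, so the block could change no call. Within the batch 1 pair 921 genes were lost and 613 gained, with 12 and 13 list members. Within the batch 2 pair it was 1054 and 279, with 12 and 10. The share of covered bases had the same sign in both pairs on 7 chromosomes.

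Leaving out 1 library at a time, lost loci ranged from 10165 to 27995, gained from 1761 to 19347 and kept from 32936 to 40719. Lost genes ranged from 412 to 694 and gained genes from 121 to 273, lost list members from 6 to 11 and gained from 4 to 7. The log2 of lost over gained loci ranged from -0.93 to 3.99. The log2 ratio of region number ranged from -0.72 to 0.13, median width from -258 to 696 bp, the share at gene ends from -0.93 to 5.77 points and chromosomes without overlap from 5 to 21. Each reversed value here came without the siOrc6 library of batch 2.

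With 2 libraries a group the smallest exact p is 0.333, and unknown read depth limits every comparison of list length.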
